A study of Homo sapiens with 7 samples.

Results

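The 48 genes described here encode proteins of G2 and mitosis: the cyclins that drive entry into division, the mitotic kinases, the chromosomal passenger complex, the spindle checkpoint, the anaphase machinery, the kinetochore, the spindle motors and the proteins of cleavage. The rule takes them by name, for their known function, and uses no measured value, though earlier results of these data were known when they were chosen. They were placed in 9 role groups. All 48 were found among the 19978 genes of the count table, and all 48 were among the 14863 genes that passed the expression filter. Their levels were measured in HEK-293, an established human embryonic kidney cell line, by sequencing of poly(A) RNA after 48 h in 3 conditions. The control cells (2 samples) were kept at pH 7.4 with the vehicle DMSO. The acidosis cells (3 samples) were kept at pH 6.6 with the same volume of DMSO. The SRPIN340 cells (2 samples) were kept at pH 7.4, per the methods also with that volume of DMSO, and with 10 µM SRPIN340. SRPIN340 is an inhibitor of the kinases that phosphorylate serine and arginine rich splicing factors. The sample titles give HEK-293 for all groups and name no editing or selection of the line, though some figure captions of the study write HEK-293T. The labels call the samples of a group repeats, the methods describe them as biological repeats that were each run more than once, and the table holds 1 column for each repeat. The p-values measure the spread between these repeats.

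During G2, cyclin B binds the kinase CDK1, and the phosphatases of the CDC25 family switch the pair on. The spindle then forms under PLK1 and the Aurora kinases, the checkpoint waits until every kinetochore is attached, and CDC20 turns on the anaphase-promoting complex (APC/C), which marks cyclins and securin for destruction so that sister chromatids part. Most of these genes are transcribed in a wave that peaks in G2 and mitosis, through promoters with a cell cycle homology region (CHR) bound by the MuvB complex with DREAM, B-MYB or FOXM1 partners, and with CCAAT boxes bound by NF-Y, so their RNA is abundant in dividing cells such as HEK-293 and low in resting ones.

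The promoter windows of the members carry these motifs. RefSeq promoter windows of GRCh38.p14, each 300 bases long from 250 before to 50 after an annotated start, were found for 41 of the 48 genes and not for BIRC5, BUB3, AURKA, TTK, TPX2, FOXM1 and UBE2C. The CHR was searched as TTTGAA or TTCGAA and the NF-Y box as CCAAT, each on both strands and each independently of the other. A CHR was present in 33 of the 41 genes (80.5%), against 16.0% of the 11825 tested genes with a window and 19.5% of all 27305 genes of the promoter table. Within 50 bases of the start it was present in 28 members (68.3%), against 4.9% of tested genes. CCAAT was present in 35 members (85.4%), against 43.3% of tested genes, and 28 members (68.3%) had both motifs, against 6.75%. These are matches of letters, not binding sites, and members were named as cell cycle genes, so a high share was built into their choice. Shown here are 12 windows of 30 bases, from 9 genes that fell in acidosis and 3 that were higher there, since both kinds carry the same element. Of those 3, NDC80 and CDC25B were not higher under total-count scaling, which is explained further on. Capitals mark 1 CHR in each window, read 5′ to 3′ on the strand of the gene, where TTCAAA is TTTGAA on the other strand. The windows of HMMR and NDC80 hold a further match beside it, left in lower case.
CCNF, cyclin F (chr16:2429350-2429379, plus strand): gggccgggtgcgTTTGAAaactggggtggg
PLK1, polo kinase (chr16:23678848-23678877, plus strand): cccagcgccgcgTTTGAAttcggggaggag
BUB1, checkpoint kinase (chr2:110678045-110678074, minus strand): ctgcgcggggtaTTCGAAtcggcggcggct
CDC20, APC/C activator (chr1:43358904-43358933, plus strand): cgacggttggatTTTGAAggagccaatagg
CENPF, kinetochore protein (chr1:214603215-214603244, plus strand): ccggtggcggctgcgggcagTTTGAAttag
KIF11, spindle kinesin (chr10:92593090-92593119, plus strand): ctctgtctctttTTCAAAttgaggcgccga
KIF14, cleavage kinesin (chr1:200620733-200620762, minus strand): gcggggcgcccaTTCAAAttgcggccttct
HMMR, spindle protein (chr5:163460598-163460627, plus strand): gggagatttgaaTTTGAAaccggtagggag
MKI67, proliferation marker (chr10:128126435-128126464, minus strand): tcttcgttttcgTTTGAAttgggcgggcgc
MAD2L1, checkpoint protein (chr4:120066807-120066836, minus strand): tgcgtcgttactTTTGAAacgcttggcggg
NDC80, kinetochore protein (chr18:2571542-2571571, plus strand): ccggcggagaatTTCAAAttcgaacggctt
CDC25B, phosphatase (chr20:3796260-3796289, plus strand): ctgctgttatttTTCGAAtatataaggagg
Among the 33 members with a CHR, 19 were lower and 5 higher in acidosis (median log2 fold change -0.44), and among the 8 without it in their windows 5 were lower and 1 higher (median -0.67). For CCAAT, 23 of the 35 members that have it were lower and 5 higher (median -0.66), against 1 lower and 1 higher of the 6 that lack it (median -0.024). Both splits are descriptions of few genes and were not tested.

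**Figure D1:**
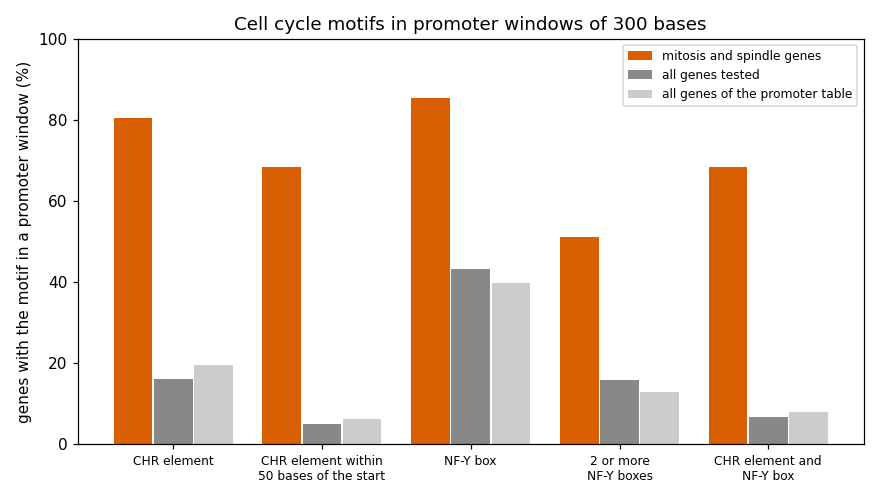
Share of genes, in percent, with each motif in a RefSeq promoter window of 300 bases, for the members (orange, 41 genes), all tested genes (dark grey, 11825) and all genes of the promoter table (light grey, 27305); the NF-Y box is CCAAT. A CHR within 50 bases of the start was present in 68.3% of members and 4.9% of tested genes.

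Levels are given as CPM, a gene's estimated count relative to the library total after TMM scaling, which sets the libraries to a common level for the typical gene. Library totals lay between 13615816 and 24110460 counts, and the lowest estimated count of any member in any sample was 84.5, so counting error was small for all of them. TMM factors averaged 1.18 for control, 1.21 for SRPIN340 and 0.79 for acidosis samples, where the 100 most abundant genes took 24.1% to 24.8% of all counts against 15.2% to 15.4% elsewhere. Directions in acidosis are therefore relative to the typical gene. Each was also computed with no TMM factor, here called total-count scaling, which shifted the median over all genes from a log2 fold change of -0.05 to one of -0.63. All 9 HEK-293 lineage markers looked at, such as PAX2, SALL1 and NEFL, were detected in every sample, although PAX2 was at 7.06 and 6.49 CPM in control and 1.19 to 2.48 CPM in acidosis. Of 6 markers of blood, liver, endothelium and choroid plexus, CD3E and TTR were at 0 in all samples and none of the others exceeded 0.983 CPM. Each difference was tested with edgeR's quasi-likelihood test over all 14863 genes, and an adjusted p is that of Benjamini and Hochberg. A gene is called lower or higher when its adjusted p is under 0.05, and a log2 fold change of -1 is a halving of the level.

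In acidosis most mitotic genes were lower, but not all. Of the 48 members, 26 were lower than in control (54.2%, against 34.2% of all genes tested) and 11 higher (22.9%, against 32.5%), and 11 did not pass. Past a log2 fold change of 1 there were 14 lower members (29.2%, against 19.1%) and 2 higher ones, MAD2L1 and FOXM1 (4.17%, against 14.4%). The lowest mean of a member was 13.8 CPM, and of all tested genes averaging 10 CPM or more 35.1% were lower and 41.5% higher. The median log2 fold change of the members was -0.38, against -0.05 for all genes. The acidosis samples did not overlap the control samples in 28 lower members (58.3%, against 39.4% of all genes) and 11 higher ones (22.9%, against 37.0%). The falls reached from -0.26 (TPX2) to -2.29 (KIF11) and the rises from 0.16 (PRC1) to 1.15 (MAD2L1), with standard errors between 0.0596 and 0.187. In bulk RNA, fewer cells in G2 and mitosis and less of these RNAs per cell cannot be told apart. Under total-count scaling, 42 members were lower (87.5%, against 55.0% of all genes) and MAD2L1 and FOXM1 remained higher (4.17%, against 16.2%). The 42 were the 26, the 11 that did not pass after TMM and 5 of the 11 higher members, while the members' median stayed 0.32 below that of all genes under either scaling.

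**Figure D2:**
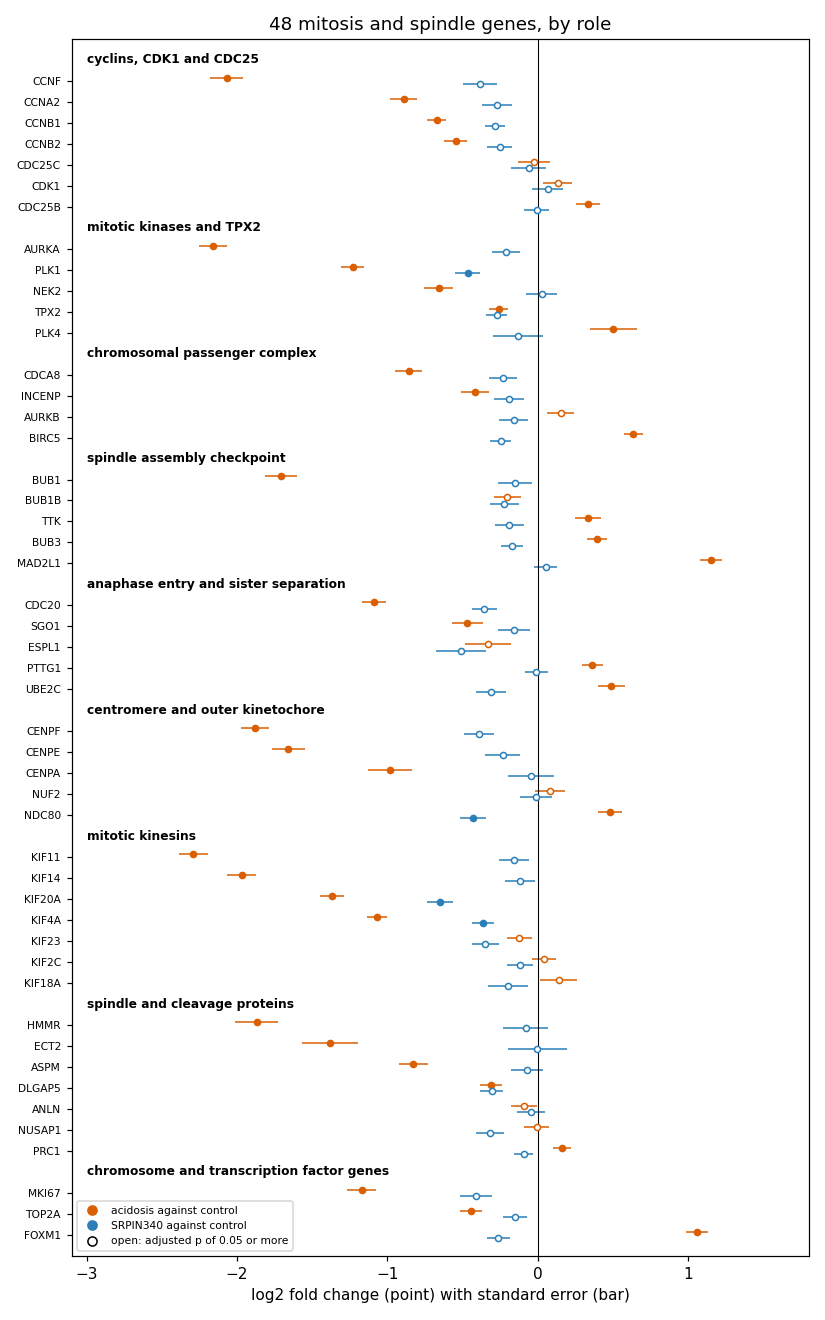
Log2 fold change against control (horizontal axis) with its standard error (bar) for the 48 members, grouped by role, in acidosis (orange, 3 samples) and with SRPIN340 (blue, 2 samples); filled points have an adjusted p under 0.05. In acidosis 26 members were lower and 11 higher, of which MAD2L1 and FOXM1 stayed higher under total-count scaling.

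**Figure D3:**
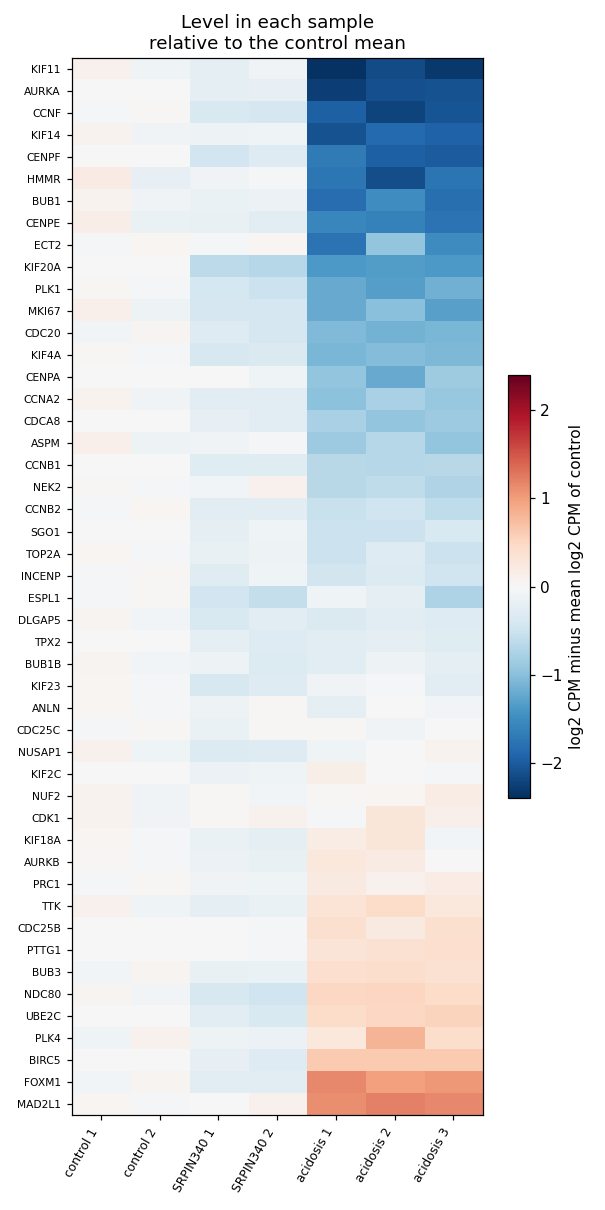
Level of each member (rows, ordered by the change in acidosis) in each of the 7 samples (columns), as log2 CPM minus the mean log2 CPM of the control samples, blue below and red above control. The 3 acidosis samples resemble one another, from KIF11 at the top (log2 fold change -2.29) to MAD2L1 at the bottom (1.15), and under total-count scaling the red rows other than MAD2L1, FOXM1 and BIRC5 had log2 fold changes below 0.

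The cyclins that drive G2 and mitosis were lower in acidosis, and their partner kinase CDK1 did not pass after TMM scaling but was lower under total-count scaling. Of 7 genes in this group, 4 fell, 1 rose and 2 did not pass, with a median log2 fold change of -0.545. CCNF, cyclin F, the substrate receptor of an SCF ubiquitin ligase, was at 52.5 and 54.4 CPM in control, 41.6 and 40.2 CPM with SRPIN340 and 13.8, 11.5 and 12.7 CPM in acidosis. The acidosis samples lay far below all others, and the fall was 4.2-fold (log2 fold change -2.07, standard error 0.109, edgeR adjusted p = 2.21e-07). CCNA2, cyclin A2, which acts in S phase and G2, was at 102 and 90 CPM in control, 79.3 and 79.6 CPM with SRPIN340 and 48.4, 55.6 and 51.2 CPM in acidosis. It fell by 0.89 on the log2 scale (edgeR adjusted p = 1.76e-05), and its groups did not overlap, though 254 bases of its exons lie opposite those of EXOSC9. The mitotic cyclins CCNB1 and CCNB2 fell less, with log2 fold changes of -0.67 and -0.545.
CDK1 itself was at 186 and 167 CPM in control and 173, 215 and 193 CPM in acidosis, with overlapping groups and a difference within the spread of the replicates (log2 fold change 0.13, 95% interval -0.06 to 0.32). Under total-count scaling it was lower, at -0.44 (edgeR adjusted p = 0.00265). Neither of the CDC25 phosphatases, which activate it, was called lower under TMM scaling. CDC25C was at 30.1 and 31.2 CPM in control, 27.5 and 31.3 CPM with SRPIN340 and 31.1, 28.9 and 30.4 CPM in acidosis, the smallest change of the group (log2 fold change -0.02, 95% interval -0.23 to 0.19). CDC25B was higher by 0.33 on the log2 scale, but at -0.24 under total-count scaling, where CDC25C was at -0.60 and both passed as lower.

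The mitotic kinases contained the second largest fall of all members. AURKA, Aurora kinase A, which builds the spindle poles, was at 86.1 and 85 CPM in control, 72.8 and 74.9 CPM with SRPIN340 and 17.8, 19.7 and 20.2 CPM in acidosis. Replicates were close in each group, and the fall was 4.45-fold (log2 fold change -2.16, standard error 0.0912, edgeR adjusted p = 5.94e-08). PLK1, the polo kinase that acts from mitotic entry to cleavage, was at 160 and 155 CPM in control, 117 and 110 CPM with SRPIN340 and 68, 63.1 and 70.8 CPM in acidosis. The samples fell into 3 steps without overlap, and in acidosis PLK1 was 2.34-fold lower (log2 fold change -1.23, edgeR adjusted p = 6.25e-07). TPX2, which activates Aurora A on the spindle, was at 209 and 205 CPM in control, 175 and 168 CPM with SRPIN340 and 172, 178 and 169 CPM in acidosis. It changed least of the group, with a log2 fold change of -0.26 (edgeR adjusted p = 0.0044), so that Aurora A and its activator, made by genes of the same phase, differed widely. NEK2, a centrosome kinase, fell by 0.66 on the log2 scale. PLK4, which starts centriole duplication, was higher at 0.50, but at -0.071 under total-count scaling, and without control replicate 1 it did not pass (edgeR adjusted p = 0.122).

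The 4 subunits of the chromosomal passenger complex, which corrects wrong attachments at the centromere and then guides cleavage, did not move together. CDCA8, borealin, was at 68.9 and 69 CPM in control, 60.3 and 57.1 CPM with SRPIN340 and 40.3, 35.8 and 37.7 CPM in acidosis. It fell in every acidosis sample (log2 fold change -0.86, edgeR adjusted p = 1.8e-05), and the scaffold INCENP fell by 0.42 on the log2 scale. BIRC5, survivin, was at 193 and 193 CPM in control, 169 and 155 CPM with SRPIN340 and 297, 300 and 300 CPM in acidosis. All 3 acidosis samples stood above all others (log2 fold change 0.63, edgeR adjusted p = 1.46e-05), but under total-count scaling the log2 fold change was 0.059 and did not pass (edgeR adjusted p = 0.418). AURKB, the kinase of the complex, was at 95.9 and 91.8 CPM in control, 85.3 and 82.6 CPM with SRPIN340 and 112, 107 and 93.3 CPM in acidosis. Its acidosis samples overlapped those of control (log2 fold change 0.15, 95% interval -0.02 to 0.33), and under total-count scaling it was lower, at -0.42 (edgeR adjusted p = 0.00238).

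The spindle assembly checkpoint was the only role group with more members higher than lower, 3 of 5 against 1, and its median log2 fold change of 0.33 turned to -0.24 under total-count scaling. MAD2L1 encodes MAD2, which unattached kinetochores convert into the inhibitor of CDC20, and it was at 99.5 and 93.6 CPM in control, 97.1 and 103 CPM with SRPIN340 and 209, 222 and 214 CPM in acidosis. Control and SRPIN340 samples overlapped and the acidosis samples were 2.23-fold above control (log2 fold change 1.15, standard error 0.0722, edgeR adjusted p = 6.16e-07), and it was still higher by 0.58 under total-count scaling. BUB1, the kinase that recruits the checkpoint to kinetochores, went the other way, with 175 and 155 CPM in control, 148 and 149 CPM with SRPIN340 and 46.1, 58.3 and 46.9 CPM in acidosis. The fall was 3.28-fold (log2 fold change -1.71, edgeR adjusted p = 6.02e-07). BUB1B, which encodes BUBR1 of the same inhibitor, was at 116 and 105 CPM in control, 102 and 88.4 CPM with SRPIN340 and 92.6, 102 and 94.2 CPM in acidosis. Every acidosis sample was below both control samples, yet the difference did not pass (log2 fold change -0.20, edgeR adjusted p = 0.0696). It passed as lower in 4 of the 14 other fits, with no filter (edgeR adjusted p = 0.0484), with a minimum of 6 CPM (0.0255), without acidosis replicate 2 (0.0465) and under total-count scaling (log2 fold change -0.78, 3.61e-05). BUB3, their partner, and TTK, the MPS1 kinase, were higher by 0.40 and 0.33 on the log2 scale and turned to -0.18 and -0.24 under total-count scaling, and TTK did not pass without control replicate 2 (edgeR adjusted p = 0.101).

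Genes for the step into anaphase were split as well. CDC20, which activates the APC/C, was at 133 and 146 CPM in control, 113 and 105 CPM with SRPIN340 and 67.1, 63.7 and 64.9 CPM in acidosis. Its 3 groups did not overlap, and it fell 2.13-fold in acidosis (log2 fold change -1.09, edgeR adjusted p = 1.4e-06). UBE2C, the ubiquitin-conjugating enzyme that works with the APC/C, was at 37.9 and 37.6 CPM in control, 31.8 and 29.2 CPM with SRPIN340 and 51.5, 53.3 and 54.4 CPM in acidosis. It was above control in all 3 acidosis samples (log2 fold change 0.49, edgeR adjusted p = 0.00105), but its log2 fold change was -0.085 under total-count scaling. PTTG1, securin, a substrate that holds separase inactive, was higher by 0.36 on the log2 scale, and at -0.21 under total-count scaling. ESPL1, separase, which cuts cohesin, was at 101 and 104 CPM in control, 74.4 and 69.1 CPM with SRPIN340 and 95, 86.9 and 61.1 CPM in acidosis. Replicate 3 was the lowest of the acidosis samples, and the difference did not pass (log2 fold change -0.33, edgeR adjusted p = 0.0799). It passed as lower without acidosis replicate 1 (log2 fold change -0.47, edgeR adjusted p = 0.0218), with a minimum of 6 CPM (0.0394) and under total-count scaling (log2 fold change -0.91, 0.000527). SGO1, shugoshin, which protects centromeric cohesin, fell by 0.47 on the log2 scale.

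At the centromere and outer kinetochore, CENPF, CENPE and CENPA fell, while NDC80 was higher and NUF2 did not pass. CENPF, a very large protein of the outer kinetochore, was at 560 and 546 CPM in control, 401 and 444 CPM with SRPIN340 and 170, 143 and 138 CPM in acidosis. The fall was 3.67-fold (log2 fold change -1.88, standard error 0.0914, edgeR adjusted p = 1.36e-07). CENPE, a kinesin that carries chromosomes to the metaphase plate, was at 166 and 132 CPM in control, 130 and 124 CPM with SRPIN340 and 50.1, 47.8 and 43.1 CPM in acidosis. For both genes every acidosis sample lay far under every other sample, and CENPE fell 3.17-fold (log2 fold change -1.66, edgeR adjusted p = 8.36e-07). CENPA, the histone H3 variant that marks the centromere, fell by 0.98 on the log2 scale, from 17.7 and 17.8 CPM to 9.26, 7.71 and 9.89 CPM. NUF2, of the NDC80 complex, was at 54.1 and 48 CPM in control, 52.3 and 48.9 CPM with SRPIN340 and 51.8, 52.8 and 57.4 CPM in acidosis. All 3 groups overlapped (log2 fold change in acidosis 0.08, 95% interval -0.11 to 0.27), but under total-count scaling NUF2 was lower, at -0.49 (edgeR adjusted p = 0.00102). NDC80, its direct partner in that complex, was at 101 and 92.5 CPM in control, 74.1 and 69.8 CPM with SRPIN340 and 136, 139 and 131 CPM in acidosis. In acidosis it was above control in every sample (log2 fold change 0.48, edgeR adjusted p = 0.000384), but at -0.094 under total-count scaling.

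The mitotic kinesins had the lowest median of the role groups, with a log2 fold change of -1.075, and in this group 4 of 7 members fell, 3 did not pass and 0 rose, also at an unadjusted p under 0.05 in edgeR. KIF11, or Eg5, which pushes the spindle poles apart, was at 243 and 210 CPM in control, 194 and 213 CPM with SRPIN340 and 43.6, 50.7 and 45.4 CPM in acidosis. Control and SRPIN340 samples overlapped, and the acidosis samples were 4.88-fold below control, the largest fall of all 48 members (log2 fold change -2.29, standard error 0.0948, edgeR adjusted p = 5.16e-08). KIF14, a kinesin of the midbody, was at 109 and 96.4 CPM in control, 93.7 and 95.8 CPM with SRPIN340 and 24.2, 28.2 and 26.6 CPM in acidosis. It fell 3.91-fold (log2 fold change -1.97, edgeR adjusted p = 1.4e-07). KIF20A, or MKLP2, which moves the passenger complex to the central spindle, was at 99 and 98 CPM in control, 64 and 61.5 CPM with SRPIN340 and 38.1, 38.7 and 37.9 CPM in acidosis. Its replicates were nearly equal and its groups lay in 3 separate steps (log2 fold change in acidosis -1.37, edgeR adjusted p = 3.39e-07), though 74 bases of its exons lie opposite those of CDC23. The chromokinesin KIF4A was at 155 and 151 CPM in control, 117 and 120 CPM with SRPIN340 and 71.8, 73.9 and 72.1 CPM in acidosis. The same 3 steps were seen (log2 fold change in acidosis -1.07, edgeR adjusted p = 6.07e-07).
KIF2C, or MCAK, which depolymerizes microtubules at wrong attachments, was at 80.9 and 81.7 CPM in control, 73.9 and 75.8 CPM with SRPIN340 and 89.4, 82.3 and 79.1 CPM in acidosis. Its acidosis samples overlapped control (log2 fold change 0.04, 95% interval -0.12 to 0.20). Of the others, KIF23, or MKLP1, of the central spindle had a log2 fold change of -0.12 and KIF18A, which limits microtubule length, one of 0.14, and neither passed. Under total-count scaling all 7 kinesins were lower, these 3 at -0.53 for KIF2C, -0.70 for KIF23 and -0.44 for KIF18A.

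Of the 7 spindle and cleavage proteins, 4 fell, 1 rose and 2 did not pass. HMMR, which organizes spindle poles, was at 86.8 and 66.3 CPM in control, 71.4 and 73.4 CPM with SRPIN340 and 22.7, 17.4 and 22.5 CPM in acidosis. The control samples differed from each other, yet all acidosis samples were far lower (log2 fold change -1.87, standard error 0.144, edgeR adjusted p = 2.37e-06). ECT2, the exchange factor that switches on RHOA at the cleavage furrow, was at 88.2 and 94.7 CPM in control, 88.5 and 94.2 CPM with SRPIN340 and 26.8, 47.5 and 32.1 CPM in acidosis. It had the largest standard error of the members that fell, 0.187, since acidosis replicate 2 was well above the other two, but all 3 lay under control (log2 fold change -1.38, edgeR adjusted p = 0.000115). NUSAP1, which bundles spindle microtubules, was at 180 and 155 CPM in control, 133 and 135 CPM with SRPIN340 and 156, 166 and 178 CPM in acidosis. Acidosis and control overlapped (log2 fold change -0.01, 95% interval -0.17 to 0.16), but under total-count scaling NUSAP1 was lower, at -0.58 (edgeR adjusted p = 0.000129). Reads of NUSAP1 can be shared with a gene model that overlaps it on the same strand over 2213 exonic bases.
ASPM, of the spindle poles, fell by 0.83 on the log2 scale and DLGAP5, which stabilizes kinetochore fibres, by 0.31. ANLN, anillin of the cleavage furrow, had a log2 fold change of -0.09 that did not pass, but was lower at -0.66 under total-count scaling (edgeR adjusted p = 8.12e-05). PRC1, the bundler of the central spindle, was higher by 0.16 (edgeR adjusted p = 0.0347), but this call is weak: it did not pass without control replicate 1 (edgeR adjusted p = 0.181) or in most of the other fits, PRC1 shares 2716 exonic bases with another gene model on the same strand, and under total-count scaling its log2 fold change was -0.41.

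The last group holds the nuclear proteins used as marks of proliferation and the factor that transcribes many of the members. MKI67, the Ki-67 antigen that coats mitotic chromosomes, was at 1120 and 939 CPM in control, 777 and 773 CPM with SRPIN340 and 445, 514 and 418 CPM in acidosis. It fell 2.25-fold (log2 fold change -1.17, edgeR adjusted p = 3.86e-06) with no overlap between the groups. TOP2A, the topoisomerase that untangles sister chromatids, was at 1110 and 1040 CPM in control, 945 and 986 CPM with SRPIN340 and 752, 868 and 748 CPM in acidosis. The groups did not overlap, and the fall was smaller (log2 fold change -0.44, edgeR adjusted p = 0.000465). FOXM1, the transcription factor that acts with MuvB and B-MYB at G2 promoters, was at 209 and 226 CPM in control, 181 and 181 CPM with SRPIN340 and 485, 429 and 447 CPM in acidosis. It was 2.09-fold higher in acidosis (log2 fold change 1.06, standard error 0.0728, edgeR adjusted p = 1.11e-06) and higher by 0.49 under total-count scaling. Other members went both ways. AURKA, PLK1, CCNB1 and CENPF were lower, and BIRC5 and CDC25B were higher after TMM scaling but not under total-count scaling. Which of them FOXM1 acts on in these cells was not tested.

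**Figure D4:**
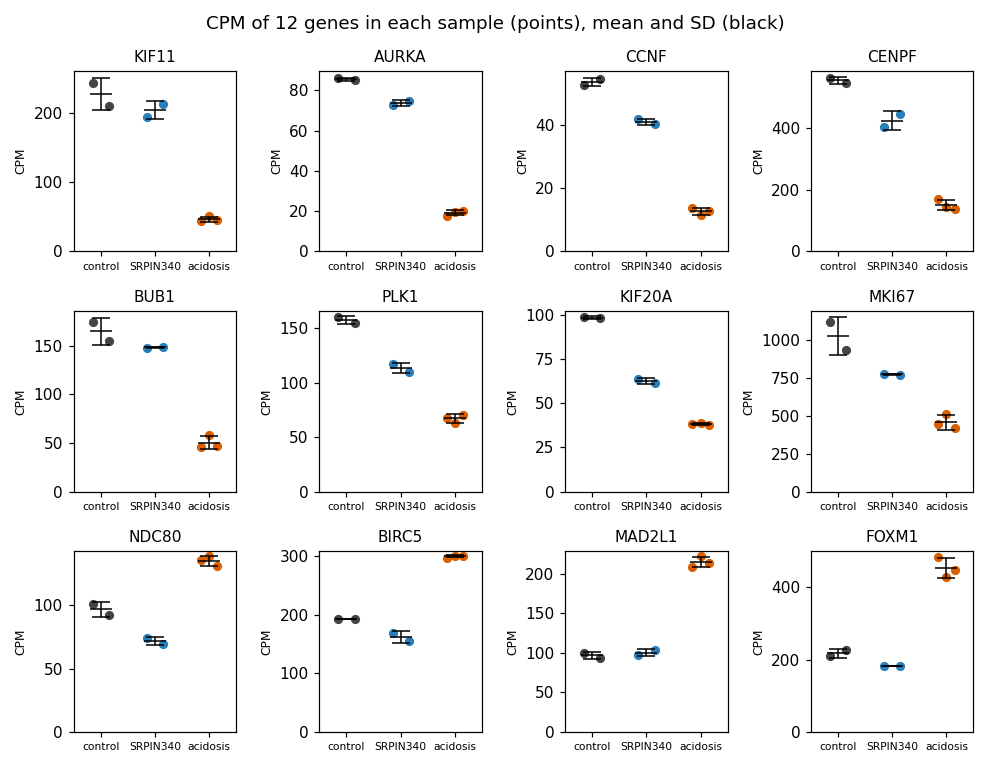
CPM of 12 members in each sample (points) with the group mean and SD (black), for control (grey, 2 samples), SRPIN340 (blue, 2) and acidosis (orange, 3). KIF11 falls from 243 and 210 CPM to 43.6 to 50.7 CPM and MAD2L1 and FOXM1 rise also under total-count scaling, whereas BIRC5 was then at a log2 fold change of 0.059 and NDC80 at -0.094.

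With SRPIN340 the differences were small and nearly all below 0. This comparison uses the same control samples as acidosis, so the values are set side by side and not correlated. The log2 fold change was below 0 in 45 of the 48 members, with a median of -0.20, against 0.00 for all genes (0.002). This was not particular to the members. Of 60 genes of G1/S and DNA replication, described further on, 50 were below 0, with a median of -0.146. Of 158 other genes from lists around mitosis, 106 were below 0, with a median of -0.103. The SRPIN340 samples lay wholly below the control samples in 35 members (72.9%, against 26.8% of all genes) and wholly above in 0 (against 27.3%). Only 4 members passed, all lower (8.33%, against 1.53% of all genes), and 0 were higher (against 0.767%). Of tested genes averaging 10 CPM or more, as all members do, 2.16% were lower and 1.01% higher. At an unadjusted p under 0.05, edgeR gave 23 lower members, against 9.48% of all genes, and 0 higher, against 8.15%. DESeq2 in its place gave 16 lower (33.3%, against 5.89%) and 0 higher (against 3.25%) after adjustment. Under total-count scaling 2 were lower (4.17%, against 1.09%) and 0 higher (against 1.08%).
KIF20A fell by 0.65 on the log2 scale (standard error 0.0842, edgeR adjusted p = 0.00794), from 99 and 98 CPM to 64 and 61.5 CPM. PLK1 fell by 0.47 (edgeR adjusted p = 0.0305), from 160 and 155 CPM to 117 and 110 CPM. NDC80 fell by 0.43 (edgeR adjusted p = 0.0378) and KIF4A by 0.36 (edgeR adjusted p = 0.0393). For each of these 4 genes both SRPIN340 samples were below both control samples, and none reached a log2 fold change of -1. The calls rest on all 4 libraries: without any single control or SRPIN340 sample none of the 4 passed, and under total-count scaling NDC80 and KIF4A did not (edgeR adjusted p = 0.0537 and 0.0547). The calls also depend on the acidosis samples, since the spread was estimated over all 7 samples. NDC80 and KIF4A did not pass without acidosis replicate 1 (edgeR adjusted p = 0.0556 and 0.0554) or without acidosis replicate 3 (0.0527 and 0.0539). Members near the threshold were CCNB1 (log2 fold change -0.29, edgeR adjusted p = 0.0595), CDC20 (-0.355, 0.064) and TPX2 (-0.27, 0.0766). ESPL1 had the second largest value, -0.51, with an adjusted p of 0.152. CDK1, MAD2L1 and NEK2 were the members above 0, at 0.06, 0.05 and 0.02.

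Tested directly against SRPIN340, acidosis had 23 lower members (47.9%, against 35.0% of all genes) and 15 higher ones (31.2%, against 32.8%), with a median log2 fold change of -0.13, against -0.05 for all genes. Under total-count scaling, 39 were lower (81.2%, against 56.9%) and 4 higher (8.33%, against 15.8%). KIF11 and AURKA differed most, at -2.13 and -1.94. NDC80, which was lower with SRPIN340 and higher in acidosis than in control, differed by 0.91 (edgeR adjusted p = 5.5e-06), and FOXM1 by 1.33 (edgeR adjusted p = 3e-07). TPX2 and DLGAP5 were at like levels in both conditions, with differences of 0.01 (95% interval -0.11 to 0.14) and -0.01 (95% interval -0.15 to 0.14). Their samples lay below those of control in each condition, but with SRPIN340 neither gene passed against control (edgeR adjusted p = 0.0766 and 0.0811). Under total-count scaling both were lower in acidosis than with SRPIN340, at -0.60 (edgeR adjusted p = 1.72e-05) and -0.62 (edgeR adjusted p = 3.29e-05).

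Per kilobase of its canonical transcript, TOP2A was the most abundant member in control, at 188 CPM per kb, followed by PTTG1 at 128, PRC1 at 103 and CCNB1 at 101 CPM per kb, and KIF18A was the least abundant at 9.39 CPM per kb. In acidosis the order changed at both ends. PTTG1 was first at 164 CPM per kb, TOP2A had 139, FOXM1 128 and BIRC5 116 CPM per kb, and CCNF was last at 3 CPM per kb. CCNB1 went from 101 to 63.1 CPM per kb, below its kinase CDK1, which was at 93.2 in control and 103 CPM per kb in acidosis. AURKB exceeded AURKA in both, with 75.5 against 42.1 CPM per kb in control and 83.7 against 9.49 in acidosis.

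The members that fell most tended to have long coding sequences. Of the 12 members with a coding length over 3000 bases, 9 were lower in acidosis and 0 higher, with a median log2 fold change of -1.12, against -0.18 for the 2150 tested genes of that length, of which 38.9% were lower and 26.9% higher. In the range from 1500 to 3000 bases, 9 of 18 members were lower and 6 higher (median -0.19), against a median of -0.13 for all genes there, with 37.3% lower and 29.5% higher. Up to 1500 bases, 8 of 18 were lower and 5 higher (median -0.015), against a median of 0.05 for all genes there, with 31.1% lower and 35.9% higher. Spearman's rho between coding length and the log2 fold change in acidosis was -0.396 over the 48 members and -0.12 over 14862 tested genes. Over the 10119 of these genes that averaged 10 CPM or more, it was -0.165. Other measures of size were also below 0 over the members, at -0.384 for exon number, -0.288 for gene span and -0.25 for transcript length. Over the 10119 genes these were -0.177, -0.197 and -0.129. All are descriptions over genes measured in the same 7 libraries. AURKA, CENPA and CDCA8 were short genes that fell, and MAD2L1, BIRC5, UBE2C and PTTG1 short genes that were higher, of which MAD2L1 stayed higher under total-count scaling. Whether length played a part in any single change was not tested. With SRPIN340 the medians of the 3 ranges were alike, at -0.19, -0.20 and -0.19.

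**Figure D5:**
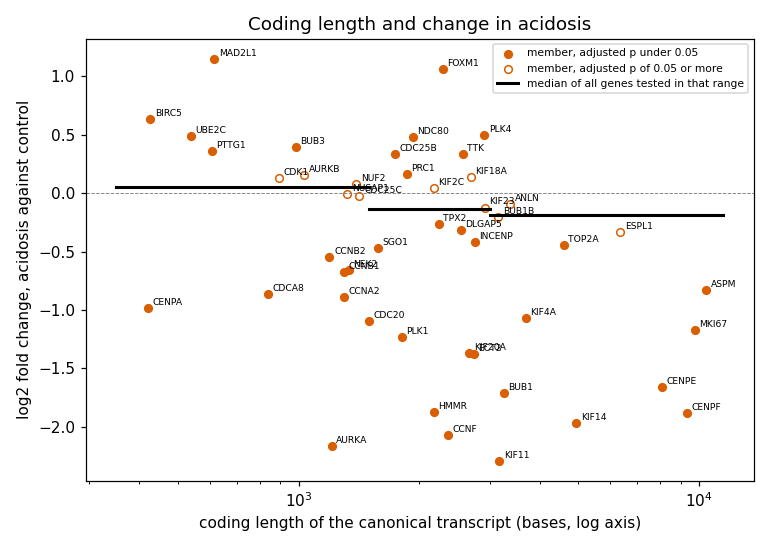
Coding length of the canonical GENCODE transcript in bases (log axis) against the log2 fold change of acidosis against control for the 48 members (filled where the adjusted p was under 0.05), with black lines at the median of all tested genes in 3 length ranges. Over 3000 bases 9 of 12 members were lower and 0 higher.

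Genes around the members were taken from lists of known function, and the log2 fold changes here are of acidosis against control. Each list's counts are to be read beside the 34.2% of all genes tested that were lower and the 32.5% that were higher. Among 14 genes that restrain or regulate CDK1 or act in the G2 checkpoint, 10 were higher and 3 lower, with a median log2 fold change of 1.36, which was 0.78 under total-count scaling. GADD45B, which binds and inhibits the cyclin B and CDK1 pair, went from 12.6 and 12.4 CPM in control, and 13.4 and 12.2 CPM with SRPIN340, to 1290, 1260 and 1250 CPM in acidosis (log2 fold change 6.66, edgeR adjusted p = 5.55e-11). GADD45A and GADD45G followed, at 4.63 and 4.58. These genes also answer to stress signalling outside the cell cycle. Chosen after their values were seen, CDKN1A, the inhibitor p21, was higher by 1.96, and the kinases WEE1 and PKMYT1, which phosphorylate CDK1 to hold it inactive, by 1.92 and 1.34, in each case with no overlap of the acidosis and control samples and still higher under total-count scaling, by 1.39, 1.35 and 0.76. Not all of the list are brakes. MASTL, ENSA and ARPP19, also named after their values were seen, act together to inhibit the phosphatase PP2A-B55 and so promote entry into mitosis, and they were higher by 0.71, 1.25 and 1.86 (0.13, 0.68 and 1.28 under total-count scaling, where MASTL did not pass). The phosphatase CDC25A, an activator, did not pass, at 0.13, and was lower at -0.44 under total-count scaling. The lower genes were the checkpoint kinase CHEK2 at -0.60, CLSPN, claspin, which helps activate CHEK1, at -0.69, and SFN, 14-3-3 sigma, at -1.53. CHEK1 itself was among the 10 higher genes, and was higher by 0.80 under total-count scaling (edgeR adjusted p = 6.46e-05). None of the 14 passed with SRPIN340.

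The complexes that read CHR and CCAAT elements, DREAM, MuvB, B-MYB and NF-Y, were split in acidosis. Of 15 genes 6 were higher and 5 lower, against 32.5% and 34.2% of all genes tested, which were split in a like way. LIN52, a MuvB subunit, was higher by 1.57 (22.3 and 23.9 CPM in control against 69.9, 63.9 and 70.9 CPM), and NFYB, a subunit of NF-Y, by 1.25. RBBP4, a histone-binding MuvB subunit, fell by 1.32. Under total-count scaling 8 of the list were lower and 4 higher, against 55.0% and 16.2% of all genes, and its median of 0.13 turned to -0.44. Of 18 APC/C subunits and regulators, 6 were higher and 5 lower, again against 32.5% and 34.2% of all genes. ANAPC1, its largest subunit, was higher by 1.39 and FZR1, the activator that takes over from CDC20, by 1.03, and the small subunit CDC26 fell by 1.12. The median of 0.08 turned to -0.50 with that scaling.

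Of 33 other centromere and kinetochore genes, 20 were lower and 9 higher (median -0.58, and -1.15 under total-count scaling). CENPI, of the inner kinetochore, fell from 57.5 and 48.6 CPM to 8.73, 8.72 and 8.08 CPM (log2 fold change -2.64, edgeR adjusted p = 1.25e-07). SPC25, a partner of NDC80 and NUF2 in their complex, fell by 2.50, so of these subunits NDC80 was higher, NUF2 did not pass and SPC25 was lower. Under total-count scaling NDC80 was at -0.094, NUF2 at -0.49 and SPC25 at -3.08, and the remaining subunit SPC24 was at -0.54 (edgeR adjusted p = 0.00114). CENPP fell by 1.92. Among 20 cohesin and condensin genes, 13 were lower and 5 higher (median -0.57). PDS5B, which regulates cohesin, fell by 2.50 and NCAPH, the kleisin of condensin I, by 1.91, while CDCA5, sororin, which holds cohesin on DNA until mitosis, was higher by 1.29 and by 0.72 under total-count scaling.

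Other spindle genes were balanced, with 12 of 26 lower and 10 higher (median -0.02, and -0.59 under total-count scaling). HAUS1, of the augmin complex, fell by 1.49 and FAM83D, which anchors a kinase to the spindle, by 1.26, and NUMA1, which tethers microtubules at the poles, was higher by 1.16 and by 0.585 under total-count scaling. Of 17 centriole and centrosome genes, 8 were lower and 6 higher. CEP192, a scaffold that recruits PLK4 and Aurora A, fell by 2.29, from 101 and 82.8 CPM to 20, 21.4 and 15.1 CPM. SASS6, of the centriole cartwheel, fell by 1.43, and CEP97, which caps centrioles, was higher by 1.66. Of 15 genes of cytokinesis and abscission, 7 were higher and 3 lower, with a median of 0.07 that turned to -0.50 under total-count scaling. RHOA, the GTPase of the cleavage ring, was higher by 1.93 (294 and 285 CPM in control against 1100, 1080 and 1110 CPM) and MYH9, non-muscle myosin, by 1.39, both with general roles in the cytoskeleton, and VPS4B, of the abscission machinery, fell by 1.58. Over the 158 genes of these lists, 69 were lower and 59 higher, with a median of -0.04, where 34.2% and 32.5% of all genes tested were. With SRPIN340 2 of the 158 were lower and 1 higher, where 1.53% and 0.767% of all genes were.

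Genes of G1/S and DNA replication gave a measure of the earlier cell cycle. Of 60 such genes, 29 were lower and 20 higher in acidosis, where 34.2% and 32.5% of all genes tested were. Their median log2 fold change was -0.175, against -0.38 for the mitotic members. Under total-count scaling 42 were lower and 11 higher, against 55.0% and 16.2% of all genes, with a median of -0.75, against -0.95 for the members. After TMM scaling ORC5, of the origin recognition complex, fell by 2.59 and PRIM2, a primase subunit, by 1.85, and the cyclin gene CCND2 was higher by 2.09. The summed level of the 48 members was 8330 and 7840 CPM in control, 6830 and 6950 CPM with SRPIN340 and 6080, 6350 and 5960 CPM in acidosis. The summed level of the G1/S genes was 6590 and 6480 CPM in control, 5600 and 5610 CPM with SRPIN340 and 7290, 7170 and 7250 CPM in acidosis. As a share of all counts, with no TMM factor, the members held 0.976% and 0.926% in control and 0.466% to 0.508% in acidosis, and the G1/S genes 0.772% and 0.766% in control and 0.567% to 0.575% in acidosis, so the G1/S sum lay above control under one scaling and below it under the other. The ratio of the sums, which does not depend on the scaling of a library, was 1.26 and 1.21 in control, 1.22 and 1.24 with SRPIN340 and 0.834, 0.886 and 0.822 in acidosis. It was thus lower in all 3 acidosis samples than in the other 4, while SRPIN340 and control samples overlapped. This ratio is a description of the summed RNA, and a few abundant genes such as TOP2A and MKI67 weigh heavily in it. With SRPIN340, 6 of the 60 genes were lower, against 1.53% of all genes tested and 4 of the 48 members, and 0 were higher, against 0.767% of all genes. The fall with SRPIN340 was thus shared by the G1/S genes.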

How the data were processed

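Poly(A) RNA of 7 HEK-293 samples was sequenced. Per the labels and the methods, the authors trimmed reads with Trimmomatic 0.39 and Trim Galore 0.6.6, ran Salmon 1.5.1 on Gencode GRCh38 transcripts, and used tximport to reach gene level. What they deposited is an estimated count for each gene and sample with no normalization, and the tximport option is not given in the sources used here. Counts were rounded. The main test was the quasi-likelihood F-test of edgeR 4.0.16 (R 4.3.3) after filterByExpr and TMM, with all 7 samples in 1 fit, and the authors' tool, DESeq2 (1.42.0 here), was an alternative. Standard errors came from the test statistic, and 95% intervals are 1.96 standard errors to either side. That multiple is for a normal distribution, so with 7 samples the intervals are narrower than the F-test implies. For ESPL1 in acidosis the interval of -0.63 to -0.03 excluded no change, while the unadjusted p in edgeR was 0.0565. On simulated counts for 14863 genes, edgeR recovered 60% of changes of 1 and 89% of changes of 2 on the log2 scale in acidosis with 10 false calls, and 67% and 81% with SRPIN340 with 5 false calls. The simulation changed 100 genes at each size, equally up and down and at any level of expression. A shift of most genes, as in acidosis, was not simulated, so these rates do not cover the choice of scaling. Gene lengths and overlaps came from GENCODE release 44 and promoters from RefSeq, read with Python 3.11.15.

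The members and lists were chosen with earlier results of these data known. Values in every sample were given for the 2 members with the largest and the 1 with the smallest absolute log2 fold change of acidosis against control in each role group and for the members that passed with SRPIN340. From each further list the up to 3 genes with the largest change among those that passed, with a mean of at least 10 CPM, were named. CDKN1A, WEE1, PKMYT1, MASTL, ENSA, ARPP19, CDC25A, CHEK1, CHEK2, CLSPN, SFN and SPC24, and the remaining members, were named outside this rule. The centriole list held 18 names, of which CPAP is another name of CENPJ, also on the list, so 17 genes were used. Alternatives were the tool, RLE size factors, total counts only, no filter, a minimum of 6 CPM, the 2 groups alone, the fold limit, a replicate block and each replicate left out in turn. Splicing was not analysed here.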

Additional observations from a re-analysis of the deposited data

How the results depend on the processing

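All 26 members that were lower in acidosis stayed lower and past the threshold in each of the 14 other fits, as did MAD2L1 and FOXM1 among the higher ones. Of the other 9 higher members, CDC25B, BUB3, TTK, PTTG1 and PRC1 passed as lower without TMM factors and PLK4, UBE2C, NDC80 and BIRC5 did not pass. Under total-count scaling, 42 members were lower and 2 higher in acidosis against control, and CDC25B was at -0.24, PLK4 at -0.071, BUB3 at -0.18, TTK at -0.24, UBE2C at -0.085, PTTG1 at -0.21, NDC80 at -0.094 and PRC1 at -0.41. Over all genes, calls that also passed a log2 fold change of 1 went from 2145 higher and 2840 lower to 815 and 5202. Against SRPIN340 that scaling gave 39 lower and 4 higher members, with CDC25B at -0.27, AURKB at -0.30, BUB3 at -0.045, TTK at -0.091, PTTG1 at -0.24, KIF18A at -0.28, KIF23 at -0.39, NUSAP1 at -0.30 and PRC1 at -0.36. The scaling itself shifts all genes, so no other cause was looked for.

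With SRPIN340 the 4 lower members became 16 with DESeq2, 8 with the 2 groups alone, 2 with total counts only and 0 with a replicate block, and the cause was not tested. The genes of the whole table called with SRPIN340 past that fold went from 48 to 27 with the block. The labels give groups the same replicate numbers, but same-numbered samples deviated together with correlations from -0.115 to 0.063, so the numbers were not taken as pairs. The block lost PRC1 in acidosis against control and gained ESPL1 against SRPIN340. Leaving out single samples gave 0 to 5 lower members and, past that fold, 11 to 66 genes of the whole table called with SRPIN340. In acidosis it gave 26 to 27 lower and 9 to 11 higher members. A group left with 1 sample was assumed to vary like the others.

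A fold limit of 1 left 14 lower and 2 higher members in acidosis against control, 0 with SRPIN340, and 9 and 2 in acidosis against SRPIN340. Without a fold limit, 9917, 342 and 10084 genes were called in the 3 comparisons. The 2 control and 2 SRPIN340 samples limit what small changes can show.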
